A study of Mus musculus with 4 samples.

Results

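The insulin-like growth factor (IGF) ligands and their binding proteins were read in primary mouse hepatocytes that did or did not carry Drp1, the dynamin-related GTPase, encoded by Dnm1l, that divides mitochondria. The 10 genes, out of 36691 gene names on the array, were Igf1, Igf2, Igfbp1, Igfbp2, Igfbp3, Igfbp4, Igfbp5, Igfbp6, Igfbp7 and Igfals, taken by the gene name printed for each probe. They were chosen by earlier results of the same arrays, because Igfbp6 was lower in the knockout cells, so every genotype value given here is a description of these arrays and no test was run on it. There were 4 arrays with 1 per group: untreated control cells, untreated Drp1LiKO cells, and the same kinds of cells given 200 μM of the saturated fatty acid palmitate.

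All cells came from C57BL/6 mice, and the study's methods name male animals and floxed sibling controls. In Drp1LiKO a floxed Dnm1l allele is recombined by Cre under the albumin promoter, which is active in hepatocytes and in the progenitors they share with bile duct cells. The labels call the controls wild-type in one field and Drp1flox in the title of the palmitate control, and give no age and no number of animals or wells behind an array. All groups shared the culture medium, which held high glucose, 1 μM insulin and 10% serum, and were harvested 24 h after seeding on collagen. The untreated control array also serves, by its label, as a sample of another series. According to the codes in the scanner tables, both untreated arrays lie on 1 slide and both palmitate arrays on another, so that palmitate and slide cannot be told apart, while each genotype comparison lies within 1 slide.

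IGF-1 and IGF-2 are peptide hormones related to insulin that act on the IGF-1 receptor. In the adult, hepatocytes release most of the circulating IGF-1 under the control of growth hormone, whereas the liver of adult rodents makes little IGF-2. The binding proteins IGFBP-1 to IGFBP-6 hold the ligands with high affinity and set how much is free, IGFBP-7 binds them weakly, and the acid-labile subunit encoded by Igfals joins IGF and IGFBP-3 or IGFBP-5 in the large complex that keeps IGF in the blood.

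A level is the log2 of the spot intensity minus the 75th percentile of its array, so that 0 is that percentile. Levels of different probes were set beside each other only to choose a gene's brightest probe, in sums over marker lists and to call genes bright or dim. How far the probe itself sets such levels was not tested. A probe counted as measured where the scanner software marked it as well above background. The error printed after a difference is the software's own error for both spots, near 0.20 log2 units for bright spots. It holds the error of spots and scanning only. The spread from animal to animal or culture to culture cannot be seen with 1 array per group. A gene was called changed where the log2 difference was at least 1 in size, a fold of 2, with the probe measured on both arrays.

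Of the 10 genes, 8 were measured, each of them on all 4 arrays, through 11 of the 16 probes. Neither of the probes for Igf2 (mm9, chr7:149837115-149837174 and chr7:149839661-149839720) was well above background on any array, nor was either probe for Igfbp5 (chr1:72904829-72904888 and chr1:72904506-72904552). The remaining unmeasured probe was the second one for Igfbp3 (chr11:7107949-7108008). No difference is given for these 5 probes. The positions are those in the scanner tables, and which exon a probe lies in was not analysed here.

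The arrays held markers of hepatocytes and of other liver cells. Dnm1l read 2.42 and 2.43 in the control arrays and 1.07 and 1.01 in Drp1LiKO, on the side its labels give. All 8 hepatocyte markers were measured on every array, albumin at levels of 8.73 to 9.03. Their summed intensity ran from 1153 to 1243 times the 75th percentile and was carried mostly by Alb and Serpina1c. It therefore hides differences of dimmer markers. Cyp3a11 was called higher in Drp1LiKO by 4.69-fold untreated and 4.94-fold with palmitate, and Tat by 2.83-fold and 2.33-fold. Of the 8 markers 0 were called lower, and the median genotype difference was 0.36 and 0.31. Each sum held the markers measured on at least 1 array, also where they were not well above background. The sum of 11 of 12 macrophage markers was 9.69 and 12.2 in control and 37.1 and 34.6 in Drp1LiKO. That of 10 endothelial markers was 9.24 and 8.27 against 13.8 and 12.1. That of 9 of 10 stellate cell markers was 1.08 and 1.24 against 11.1 and 13.3. Of these macrophage markers 9 and 6 were well above background in control and 11 and 10 in Drp1LiKO. For the stellate cell markers these counts were 4 and 3 against 9 and 8. Of these lists Timd4 and Des were unmeasured on every array. The endothelial sums were carried mostly by Egfl7 (genotype difference 0.29 and 0.42), so they understate markers such as Kdr (2.43 and 1.75). The stellate sums in Drp1LiKO were carried mostly by Dcn (4.19 and 4.04). Of the 8 markers of mesothelial cells and portal fibroblasts, the 4 measured summed to 29.3 and 26.2 against 19.6 and 16.8. This fall was carried by Fbln2 (level 4.02 to 4.86, genotype difference -0.61 and -0.68). In the same list Msln (1.53 untreated) and Cd34 (1.31 and 2.53) were called higher in Drp1LiKO, the median difference was 1.31 untreated and 0.93 with palmitate over the 3 and 2 genes measured on both arrays, and Upk3b, Gpm6a, Thy1 and Eln were not well above background. Of the 5 cholangiocyte markers, the 4 measured summed to 60.5 and 57.1 against 41.8 and 43.6. This sum was carried mostly by Spp1 (genotype difference -0.60 and -0.40). Among these markers 0 were called, Sox9 was at 0.45 and 0.21, and Epcam was not well above background. In such mixed RNA, fewer cells of a type and less RNA per cell cannot be told apart, and the part of these cells in the IGF values was not tested.

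The promoters of the genes that moved furthest are printed here because Igf1, Igfbp1 and Igfbp6 were lower, and Igfbp7 higher, in Drp1LiKO both untreated and with palmitate. Each sequence is the RefSeq window (GRCm38.p6) from 250 bases before to 50 bases after the annotated start, in the direction of the gene. Capitals mark every match, on either strand, to the letters searched, which were TATAAA for the TATA box, CCAAT for the box of that name, GGGCGG for the GC box, TTCNNNGAA for STAT factors, GTAAACA for FOXO factors, CAAAACAA for the core of the insulin response element and GGAATG for TEAD factors.
Igfbp6, chr15:102143936-102144235, plus strand: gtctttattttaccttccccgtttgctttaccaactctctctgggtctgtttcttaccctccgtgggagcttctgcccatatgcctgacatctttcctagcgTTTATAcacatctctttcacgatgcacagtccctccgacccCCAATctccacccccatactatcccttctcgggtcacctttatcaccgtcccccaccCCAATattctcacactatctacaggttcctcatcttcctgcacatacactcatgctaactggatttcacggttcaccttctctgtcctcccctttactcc
Igf1, chr10:87860861-87861160, plus strand: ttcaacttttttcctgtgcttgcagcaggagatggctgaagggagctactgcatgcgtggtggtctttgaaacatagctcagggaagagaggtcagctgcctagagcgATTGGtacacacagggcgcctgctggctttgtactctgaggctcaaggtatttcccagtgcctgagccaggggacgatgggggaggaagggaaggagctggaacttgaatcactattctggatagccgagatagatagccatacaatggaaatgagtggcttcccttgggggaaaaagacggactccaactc
Igfbp1, chr11:7197537-7197836, plus strand: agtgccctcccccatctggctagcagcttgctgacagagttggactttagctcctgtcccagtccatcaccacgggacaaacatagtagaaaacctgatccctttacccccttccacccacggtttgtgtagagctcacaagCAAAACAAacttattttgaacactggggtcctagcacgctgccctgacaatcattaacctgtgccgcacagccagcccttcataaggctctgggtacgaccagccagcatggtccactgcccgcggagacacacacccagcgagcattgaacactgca
Igfbp7, chr5:77407996-77408295, minus strand: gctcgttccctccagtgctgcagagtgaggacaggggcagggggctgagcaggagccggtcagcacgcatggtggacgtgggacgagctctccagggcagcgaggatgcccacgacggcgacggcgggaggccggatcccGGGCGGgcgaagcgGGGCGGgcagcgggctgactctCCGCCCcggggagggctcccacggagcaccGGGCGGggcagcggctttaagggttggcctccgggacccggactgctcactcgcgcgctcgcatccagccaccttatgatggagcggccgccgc

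No letters searched were shared by all 3 of the lower genes. Igfbp6 held CCAAT at 50 bases before the start and once further upstream, and TATAAA on the opposite strand at 148 bases before it. Igf1 held CCAAT on the opposite strand at 142 bases before the start, and 37.4% of all 32851 windows held those letters. In Igfbp1, which insulin is known to repress through an insulin response element close to the start, CAAAACAA began 108 bases before the start and was present in 2.51% of all windows. Igfbp7 held GGGCGG at 4 places, which 35.7% of windows held at least once, and its window was 73.3% G and C against 49.7% in Igfbp6, 52.3% in Igf1, 54.3% in Igfbp1 and a median of 52.7% over all windows. A match is a description of the letters and says nothing of whether a factor binds there.

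Igfbp6, whose product prefers IGF-2 over IGF-1, varied most of the 8 measured genes. Its intensity was 325 in control, 63.4 in Drp1LiKO, 190 in control with palmitate and 25.5 in Drp1LiKO with palmitate, which are levels of -0.58, -3.10, -1.15 and -4.20. Both Drp1LiKO arrays thus lay below both control arrays, and within each genotype the palmitate array was the lower one. The genotype difference was -2.52 (error 0.23), a 5.73-fold lower value, in untreated cells and -3.05 (error 0.34), 8.27-fold lower, with palmitate. These are the values for which the gene was chosen, and they ranked 34 of 17602 and 5 of 16736 genes from the lowest. The level in Drp1LiKO with palmitate stood close to the lower limit of that array, where the lowest measured probe had a level of -4.52. With another background correction (normexp), which compresses dim spots, the differences were -1.73 untreated and -1.63 with palmitate, in the same direction.

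**Figure D1:**
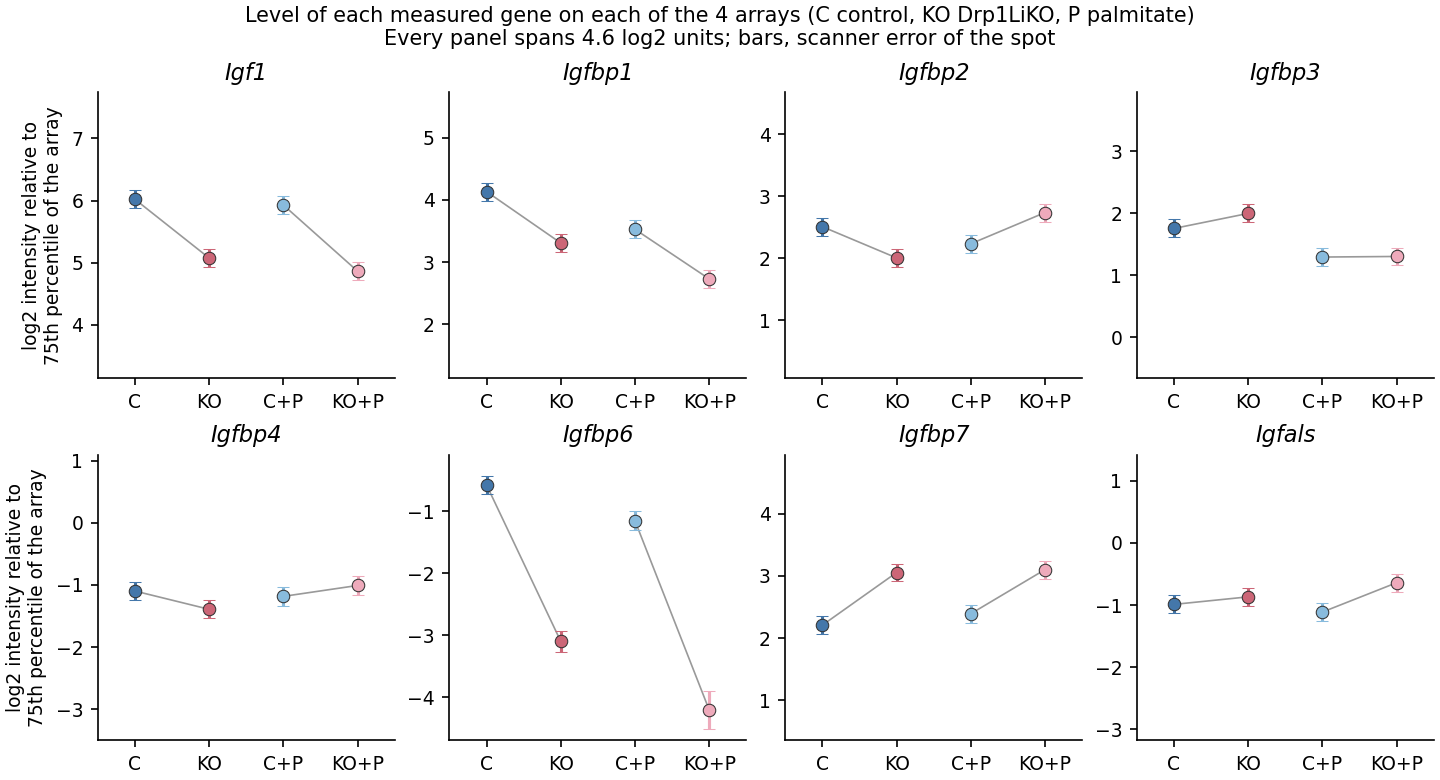
Level of the 8 measured genes on each array (log2 intensity relative to the 75th percentile of the array; bars, the scanner software's error of the spot; 1 array per group; lines join the genotypes of 1 slide). Every panel spans the same number of log2 units. Igfbp6 has the widest range, from -0.58 in control to -4.20 in Drp1LiKO with palmitate, and Igf1 and Igfbp1 are lower, and Igfbp7 higher, on both Drp1LiKO arrays.

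Igf1, the one measured ligand, had its highest signal on the probe at chr10:87393516-87393575, with intensities of 31493 in control, 18261 in Drp1LiKO, 25790 in control with palmitate and 13616 in Drp1LiKO with palmitate. The levels were 6.02, 5.07, 5.93 and 4.86, so that the control arrays lay close together and above both Drp1LiKO arrays. The genotype difference was -0.95 (error 0.20) untreated, just short of the call, and -1.07 (error 0.20) with palmitate, which passed it at 2.09-fold lower. A more negative genotype difference was found in 3.85% of all genes measured untreated and in 2.09% of those measured with palmitate.

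The genotype differences of the other Igf1 probes had the same direction with other sizes. The probe at chr10:87378456-87378515 read 0.92, -0.01, 0.83 and 0.27 in the order used above, which is -0.93 (error 0.20) untreated and -0.56 (error 0.20) with palmitate. The dimmest probe, at chr10:87325382-87325441, read -2.37, -2.69, -2.64 and -3.13, a difference of -0.31 (error 0.22) and -0.49 (error 0.26). The 3 probes come from different transcripts of the gene in the array's design, and with their mean in place of the brightest probe Igf1 differed by -0.73 and -0.71 and was not called. On the brightest probe the palmitate call was also lost with no scaling between arrays (-0.92), and the untreated difference became a call with median scaling (-1.13).

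Igfbp1, the binding protein that fasting and lack of insulin raise in the liver, read 4.13 in control, 3.31 in Drp1LiKO, 3.53 in control with palmitate and 2.73 in Drp1LiKO with palmitate. It was lower on the Drp1LiKO array of each slide, by nearly equal amounts of -0.83 and -0.80 (error 0.20 each), 1.78-fold and 1.74-fold. On the palmitate slide it was lower in both genotypes by -0.61 and -0.58, so the Drp1LiKO palmitate array was the lowest and the untreated control the highest. None of these 4 differences reached the call. In control cells 0.936% of the genes had a more negative palmitate difference.

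Igfbp2, which the adult liver secretes and which rises on fasting, read 2.51 in control, 2.01 in Drp1LiKO, 2.24 in control with palmitate and 2.74 in Drp1LiKO with palmitate. The order of the genotypes turned between the slides. The genotype difference was -0.50 untreated and 0.50 with palmitate, and the palmitate difference was -0.28 in control and 0.73 in Drp1LiKO (error 0.20 each). The gap between the palmitate differences was 1.01 (error 0.29), the largest among the 11 measured IGF probes, and it was not tested against any spread between cultures. No single difference of Igfbp2 reached the call.

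Igfbp3, the main carrier of IGF in the blood, is made in the liver mostly by cells other than hepatocytes. Its measured probe (chr11:7106193-7106252) read 1.75 in control, 2.00 in Drp1LiKO, 1.29 in control with palmitate and 1.30 in Drp1LiKO with palmitate. The palmitate arrays were both below the untreated ones, by -0.46 in control and -0.69 in Drp1LiKO (error 0.20 each), while the genotype differences of 0.24 and 0.01 were close to or below the spot error. Igfbp3 is the chromosomal neighbour of Igfbp1, with the measured and unmeasured probes 3691 to 5447 bases from the Igfbp1 probe on the opposite strand. Both genes were lower on the palmitate slide in both genotypes, but Igfbp1 alone was lower in Drp1LiKO. The other neighbouring pair, Igfbp2 and Igfbp5 on chromosome 1, could not be compared because Igfbp5 was not measured.

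Igfbp4, whose product restrains IGF until the protease PAPP-A cleaves it, had 2 measured probes. The brighter one (chr11:98913334-98913393) read -1.10, -1.39, -1.18 and -1.01 in control, Drp1LiKO, control with palmitate and Drp1LiKO with palmitate, and the other one read -1.66, -1.80, -1.90 and -1.72. Genotype differences were -0.29 and -0.14 untreated and 0.18 on both probes with palmitate (error 0.21 to 0.22). All but the first of these lay within the spot error. Igfals, which hepatocytes make, read -0.99, -0.87, -1.11 and -0.64, with a genotype difference of 0.12 untreated and 0.47 with palmitate (error 0.21 each). Igfals was thus highest on the Drp1LiKO palmitate array, and neither value reached the call.

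Igfbp7, which is abundant in endothelial cells and stellate cells of the liver, was the one gene of the 8 that was higher in Drp1LiKO by more than 0.5 log2 units on both slides. It read 2.21 in control, 3.06 in Drp1LiKO, 2.39 in control with palmitate and 3.10 in Drp1LiKO with palmitate, which is 0.85 and 0.71 higher (error 0.20 each), or 1.80-fold and 1.64-fold. The palmitate differences of 0.18 and 0.05 lay within the spot error. The endothelial markers measured on both arrays were higher in Drp1LiKO on each slide, with medians of 1.62 and 1.05 over 8 and 5 genes. With palmitate, Pecam1, Lyve1 and Ehd3 were measured in Drp1LiKO only and Tek in control only. Setting its control level against the lowest measured level of the Drp1LiKO array, Tek was there at least 2.02-fold lower in Drp1LiKO. Untreated, Tek was measured in Drp1LiKO only, at least 1.20-fold higher. The medians of stellate cell markers were 2.07 and 2.44 over 4 and 3 genes. Those of macrophage markers were 2.41 and 1.65 over 9 and 6 genes. The part of these markers in the value of Igfbp7 was not tested.

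**Figure D2:**
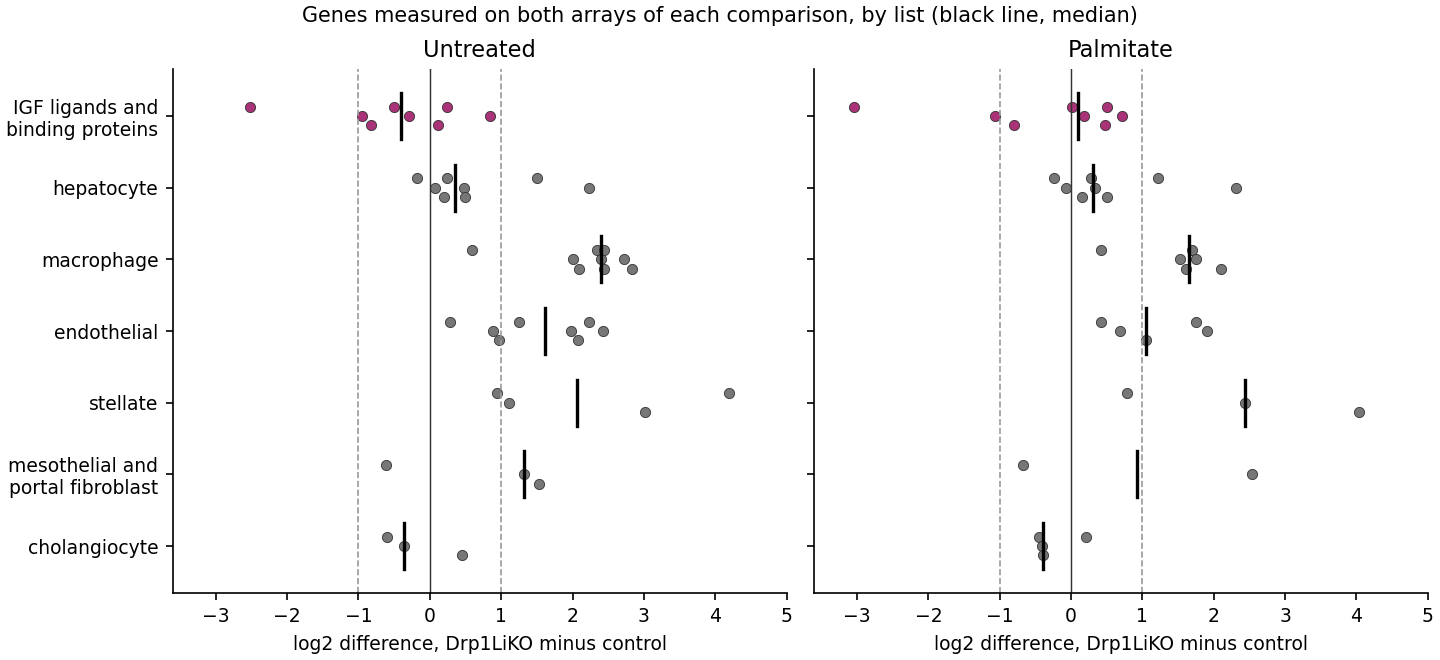
Genotype difference (log2, Drp1LiKO minus control) of the IGF genes and of marker genes of liver cell types, untreated (left) and with palmitate (right); each point is 1 gene measured on both arrays, the black line is the median of the list and the dashed lines are the size at which a gene was called. The plotted macrophage, endothelial and stellate cell markers lie above 0 in both panels. Markers not measured on both arrays are left out, among them Tek with palmitate, which was measured in control only. Igfbp6, Igf1 and Igfbp1 lie below 0 in both panels, and Igfbp2 and Igfbp4 in the untreated panel only.

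**Figure D3:**
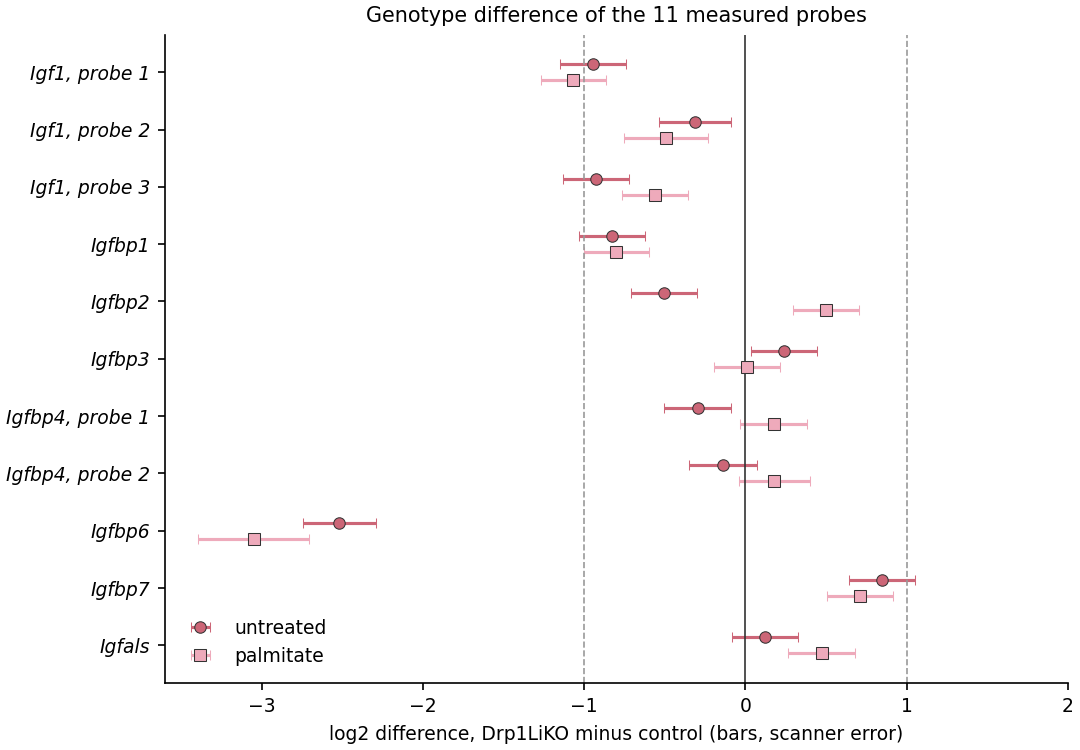
Genotype difference (log2, Drp1LiKO minus control) of the 11 measured probes, untreated (circles) and with palmitate (squares); bars, the scanner software's error of the difference; dashed lines, the size at which a gene was called. For Igf1, probe 1 is the brightest and probe 2 the dimmest, and for Igfbp4 probe 1 is the brighter. Igfbp6 stands apart at -2.52 and -3.05, all Igf1 probes lie below 0, and Igfbp2 changes side.

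The genotype differences of the IGF genes lay on both sides of 0. Untreated, 7.81% of the 17602 measured genes were called, 786 higher and 589 lower in Drp1LiKO, and of the 8 IGF genes 1 was called, Igfbp6. With palmitate 5.57% of 16736 genes were called, and of the 8 IGF genes 2, Igf1 and Igfbp6, both lower. Since the comparison chose Igfbp6, nothing is read from these counts. The IGF genes had a median difference of -0.40 untreated, with 5 below 0 and 3 above, and of 0.09 with palmitate, with 3 below 0 and 5 above, against -0.04 and -0.05 over all genes. Of all genes 54.6% untreated and 57.1% with palmitate lay below 0. With median scaling the last IGF median turned to -0.05, with 4 genes below 0.

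**Figure D4:**
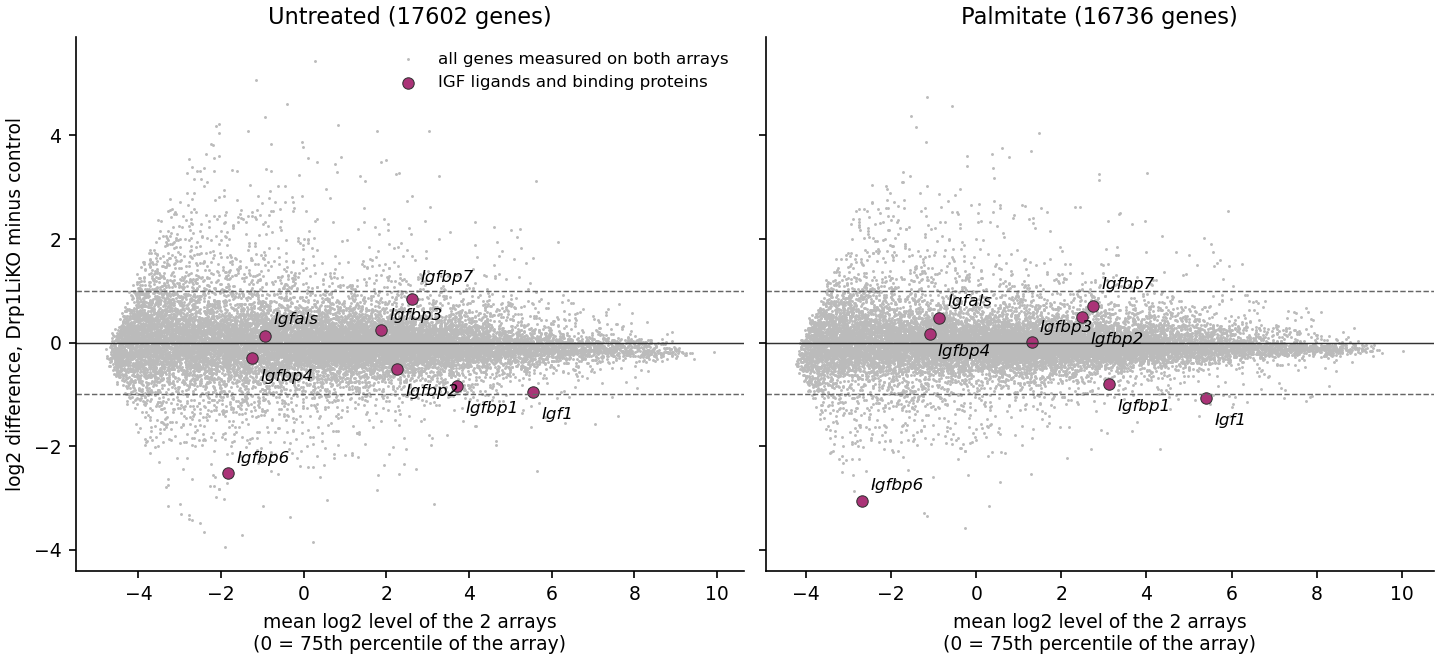
Genotype difference (log2, Drp1LiKO minus control) against the mean level of both arrays for every gene measured on both, untreated (17602 genes, left) and with palmitate (16736 genes, right), with the 8 IGF genes marked; dashed lines, the size at which a gene was called. Igf1 lies near the lower edge of the bright genes and Igfbp6 far below the dim genes around it. Of all measured genes, 5.03% untreated and 3.78% with palmitate had a lower difference than Igfbp1. For Igfbp7 these shares were 94.0% and 94.3%. Igfbp2, Igfbp3, Igfbp4 and Igfals lie between Igfbp1 and Igfbp7.

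Few genes differed between the palmitate and the untreated slide, and in control cells the IGF genes were mostly lower on the palmitate slide. In control cells 1.11% of 16781 genes were called and 0 of the 8 IGF genes. The IGF median difference was -0.20 with 7 below 0 and 1 above, against 0.01 and 46.4% below 0 over all genes. Of those 7, Igf1 (-0.09), Igfbp4 (-0.09) and Igfals (-0.12) lay within the spot error. In Drp1LiKO cells 2.42% of 17800 genes were called and 1 of the 8 IGF genes, Igfbp6 at -1.10 (error 0.35). The IGF median there was -0.08, with 4 genes below 0 and 4 above, and the median over all genes was 0.01, with 47.8% below 0. In control cells Igfbp6 had a palmitate difference of -0.58 (error 0.21), and the gap of -0.53 between the genotypes was near the error of 0.41. With normexp the Drp1LiKO value of Igfbp6 shrank to -0.29 and was no longer called. The slide cannot be told apart from palmitate in any of these values, and the palmitate comparisons share their arrays with the genotype comparisons.

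**Figure D5:**
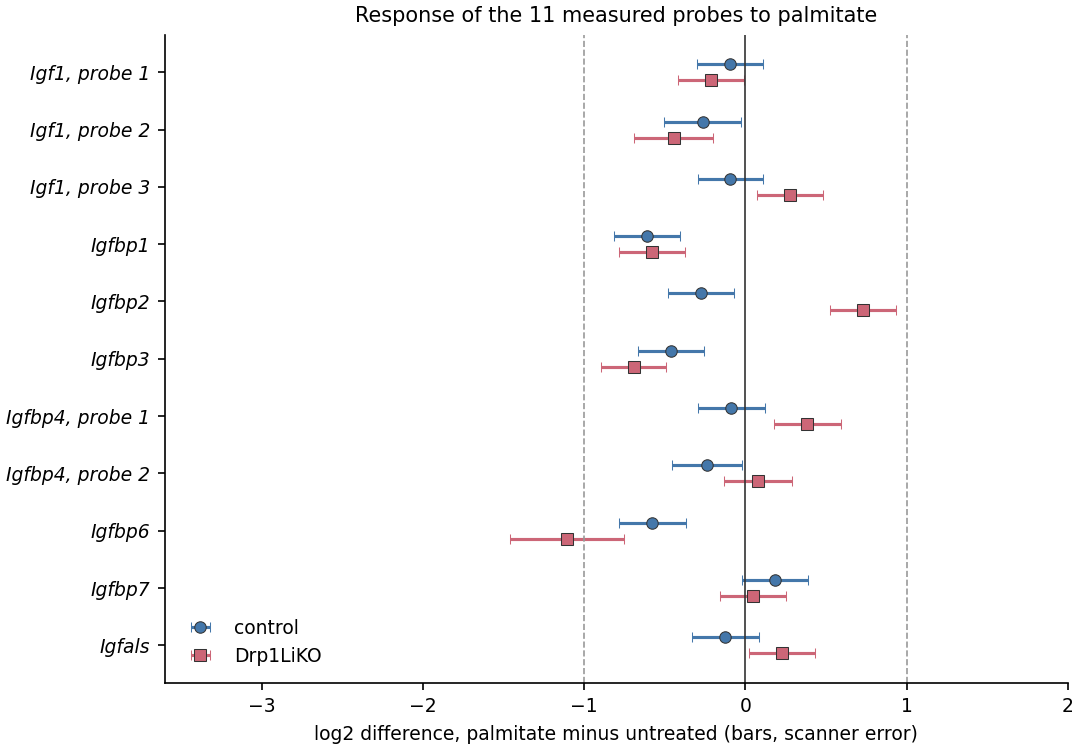
Palmitate difference (log2, palmitate minus untreated) of the 11 measured probes in control (circles) and Drp1LiKO (squares); bars, the scanner software's error of the difference; dashed lines, the size at which a gene was called. Igfbp1 and Igfbp3 lie below 0 in both genotypes, Igfbp2 lies at -0.28 in control and 0.73 in Drp1LiKO, and Igfbp6 in Drp1LiKO is the one point past a dashed line.

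The IGF pathway outside the ligands and binding proteins was read from a list. Of its 29 genes of the growth hormone axis, IGF receptors, adapters, kinases and IGFBP proteases, 28 were measured on at least 1 array, and 0 were called in any of the 4 comparisons among the 25, 25, 25 and 26 genes measured on both arrays, beside 7.81%, 5.57%, 1.11% and 2.42% of all genes. Over the list the genotype difference had a median of -0.10 on the untreated slide and -0.17 on the palmitate slide. Among the genes that stand above Igf1, the growth hormone receptor gene Ghr differed by 0.10 and -0.10. Stat5b, the transcription factor of the growth hormone signal, differed by -0.12 and -0.02, Stat5a by 0.01 and 0.08 and Jak2 by 0.17 and -0.12. Of the feedback targets of the same signal on the list, Socs2 was lower by -0.73 and -0.77. The other, Cish, was lower by -0.44 and -0.14 (error 0.20 each), so its palmitate value lay within the spot error. The insulin receptor gene Insr differed by -0.10 and -0.19, and Irs2, the adapter of insulin signalling that insulin represses, by -0.64 and -0.43. Grb10, an adapter that restrains the insulin and IGF-1 receptors, was lower by -0.83 and -0.52, and Pik3ca, a catalytic subunit of PI3-kinase, was higher by 0.52 and 0.70. The other PI3-kinase genes of the list were lower, Pik3cb by -0.40 and -0.48 and Pik3r1 by -0.38 and -0.51.

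The IGF-1 receptor gene Igf1r was dim in these cells, as 1 of its 4 probes was well above background on all arrays, and it read -3.35, -2.62, -2.93 and -3.49 in the order used above. Its genotype difference was 0.73 (error 0.24) untreated and -0.56 (error 0.28) with palmitate. Igf2r, the receptor that clears IGF-2, differed by 0.05 and 0.29. The genes of the IGFBP proteases Pappa and Pappa2 and of their inhibitor Stc2 could be measured in untreated Drp1LiKO cells but not in untreated control cells. Leaving out spot error, they were at least 1.83-fold, 2.16-fold and 1.12-fold higher there, setting the Drp1LiKO level against the lowest measured level of the control array. The bound of Stc2 lies within the error of even bright spots. For Pappa2 the bound with palmitate was at least 2.17-fold, while Pappa and Stc2 were not well above background in Drp1LiKO with palmitate. The untreated Drp1LiKO array had 28919 probes well above background and the untreated control array 27259.

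Of 13 relatives whose proteins carry an IGFBP-type domain, 8 were measured on at least 1 array. Esm1, which encodes an endothelial proteoglycan, exceeded its control value by 1.54 on the untreated slide and 1.72 on the palmitate slide and was called in both. Htra3, a secreted serine protease, differed by -1.86 untreated and was at least 2.66-fold lower with palmitate, where it was not well above background in Drp1LiKO. Its relative Htra1 was called for palmitate in control cells at -1.44. The 5 genes closest to Igfbp6 in pattern, by the root mean square gap between levels centred on each gene's own mean over the 4 arrays, were Mboat1 (0.20), Gm36582 (0.20), Pbp2 (0.22), Nppb (0.26) and Timp2 (0.37), out of 12619 genes compared. All 5 were lower on both Drp1LiKO arrays by at least 2 log2 units, which follows from the measure.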

How the data were processed

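The 4 samples were grouped by their labels. Linear spot intensity values were deposited, with a scanner table for every array. Per the file headers, Feature Extraction 10.7.1.1 made them and subtracted the background. The labels name version 9.5.1.1 of that software, and labels and methods name different RNA kits. The authors also deposited a table of normalized intensity values, used as an alternative; its columns hold the same sorted values, to a relative difference of 0.000685, as quantile normalization gives. The software's flags (deposited as other values of 0 or 1) marked probes well above background and outlier spots. Control spots and outlier spots were left out, repeat spots were averaged, and log2 values were centred on the 75th percentile of the array. The array had 62976 spots; 25306 to 28919 of 56603 probes were well above background, and 0 were saturated. Probes printed 10 times had a median SD of 0.03 to 0.04 log2 units.

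A gene stood for its brightest measured probe. With 1 array per group no test was run, and precision is limited by that number. Named genes are the members, the fixed lists and the genes nearest to Igfbp6. Members and lists were chosen with earlier results of these data known. All 10 members matched RefSeq. Alternatives were other scalings, normexp (offset 50) in limma 3.58.1 (R 4.3.3), the authors' table, the mean over probes, other filters and a threshold of 1.5-fold. Values show changes relative to the bulk of transcripts.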

Additional observations from a re-analysis of the deposited data

Results flagged for a closer look

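For 3 of the 8 measured IGF genes, each read on its brightest probe, the arrays moved in opposite directions in the groups compared. None of these contrasts was tested. The palmitate difference of Igfbp2 was -0.28 in control and 0.73 in Drp1LiKO, and its genotype difference was -0.50 untreated and 0.50 with palmitate. For Igfbp4 the palmitate difference was -0.086 in control and 0.38 in Drp1LiKO, and the genotype difference was -0.29 untreated and 0.18 with palmitate. For Igfals the palmitate difference was -0.12 in control and 0.23 in Drp1LiKO. Of these values, those of Igfbp2 all exceeded the spot error of 0.20, whereas for Igfbp4 and Igfals at least 1 value of each contrast lay within it. The Igf1 probes differed in the direction of the palmitate difference in Drp1LiKO. It was -0.09 in control and -0.21 in Drp1LiKO on the brightest probe and -0.26 and -0.44 on the dimmest. On the probe at chr10:87378456-87378515 it was -0.09 and 0.28 (error 0.20 each).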

How the results depend on the processing

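Of 256 differences of the 8 IGF genes recomputed over 8 alternatives, 244 moved by less than the spot error and 12 by more, and 0 called values changed sign. Many of the 256 could not move. The background filters only decide which genes count as measured and leave each difference as it was. The mean over probes alters only Igf1 and Igfbp4, and the authors' table nearly repeats quantile normalization. The count of 244 is therefore no measure of robustness. Signs turned 4 times, in differences of at most 0.18 in size, which were those of Igfals (genotype, untreated) and Igfbp3 (genotype, palmitate) with median scaling and both palmitate differences of Igfbp7 with no scaling. Besides the changes of Igfbp6 under normexp and of Igf1 with the mean over probes, those that moved by more than the error were palmitate differences in Drp1LiKO without scaling between arrays. Median scaling moved the median of all genes to -0.22 untreated and -0.19 with palmitate in the genotype comparisons, and no scaling moved the 4 medians to 0.12, 0.09, -0.18 and -0.20.

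In this paragraph the share of all genes called in the same setting and comparison stands in brackets. The number of IGF genes called by genotype untreated was 3 with median scaling (8.53%), 2 with no scaling (8.39%) and 4 at 1.5-fold (19.6%). By genotype with palmitate it was 1 with no scaling (5.94%), 1 with the mean over probes (6.04%) and 4 at 1.5-fold (14.3%). For palmitate it was 1 in control at 1.5-fold (4.92%), and in Drp1LiKO 0 with normexp (1.03%) and 3 at 1.5-fold (8.47%). By genotype untreated the pathway list had 1 call with median scaling (8.53%) and 1 with the mean over probes (8.58%). It had 3 with the probe measured on at least 1 array (14.4%) and 4 at 1.5-fold (19.6%). By genotype with palmitate it had 1 with the probe measured on at least 1 array (11.5%) and 2 at 1.5-fold (14.3%). For palmitate it had 1 call in control at 1.5-fold (4.92%), and in Drp1LiKO 1 with no scaling (2.24%) and 1 at 1.5-fold (8.47%). Over all genes the counts called were 1375, 932, 186 and 431 in the order genotype untreated, genotype with palmitate, palmitate in control and palmitate in Drp1LiKO. They were 738, 524, 58 and 184 with normexp, 2846, 2155, 1051 and 1378 with the probe measured on at least 1 array, 3446, 2390, 826 and 1507 at 1.5-fold, and 283 for palmitate in control with the mean over probes. The cause of these changes was not tested. No paired analysis was possible because each group has 1 array. Signal over background limits Igfbp6 in Drp1LiKO with palmitate, Igf1r and the unmeasured probes.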
